A study of Mus musculus with 6 samples.

Results

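The p24 family of cargo receptors was followed in mouse liver through 9 genes, *Tmed1*, *Tmed2*, *Tmed3*, *Tmed4*, *Tmed5*, *Tmed6*, *Tmed7*, *Tmed9* and *Tmed10*. They were taken by gene symbol from a table of 35540 genes, and 34 of its 116748 annotated transcripts belong to them. RNA sequencing of whole liver covered 3 animals of the genotype *Surf4 fl/fl Alb-Cre+* and 3 controls of the genotype *Surf4 fl/fl Alb-Cre-*. Both groups carry *Surf4* alleles with loxP sites around exon 2, on the C57BL/6J background. In *Alb-Cre+* mice the albumin promoter drives Cre recombinase in hepatocytes, where exon 2 is removed. The paper names cell types other than hepatocytes as the likely source of the *Surf4* mRNA that still holds exon 2. Replicate 2 of either genotype was a female mouse, and replicates 1 and 3 were males. According to the methods, mice were fasted overnight before samples were collected, and the age of these 6 mice is not given in the sources used here. *Surf4* encodes a cargo receptor of the endoplasmic reticulum (ER) that carries secreted proteins into vesicles bound for the Golgi. The question addressed here is whether the mRNAs of another family of cargo receptors differ when hepatocytes lose *Surf4*.

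The p24 proteins span the membrane of the early secretory pathway, with a luminal part that meets cargo and a short tail in the cytosol that meets the vesicle coats. They fall into the alpha, beta, gamma and delta subfamilies and assemble with each other, so that loss of a member commonly lowers the others at the protein level. They travel from the ER to the Golgi in vesicles with the COPII coat and back in vesicles with the COPI coat, and are best known as receptors for proteins anchored by glycosylphosphatidylinositol (GPI). Protein was not measured here.

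The ends of the coding sequences are shown because the tail is where the members differ in their contacts with the coats. The tail also separates the alpha pair, *Tmed4* and *Tmed9*, from the other subfamilies. Each line gives the last 48 coding bases before the stop codon, 5′ to 3′ on the strand of the gene, read from GRCm38 with the GENCODE M21 annotation. Capitals mark adjacent codons for a pair of phenylalanines, where such a pair was found. All of these stretches are coding and lie in the last exon of the leading transcript, which is exon 5 in *Tmed4*, *Tmed9* and *Tmed10*, exon 4 in *Tmed2*, *Tmed1* and *Tmed5*, and exon 3 in *Tmed3*.
*Tmed4* (alpha, minus strand, chr11:6271654-6271701): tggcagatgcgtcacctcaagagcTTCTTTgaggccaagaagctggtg
*Tmed9* (alpha, plus strand, chr13:55596940-55596987): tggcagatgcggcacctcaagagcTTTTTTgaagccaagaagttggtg
*Tmed2* (beta, plus strand, chr5:124549155-124549202): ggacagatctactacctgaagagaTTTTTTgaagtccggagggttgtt
*Tmed10* (delta, minus strand, chr12:85343431-85343478): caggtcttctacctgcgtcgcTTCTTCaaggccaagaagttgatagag
*Tmed1* (gamma, minus strand, chr9:21508176-21508223): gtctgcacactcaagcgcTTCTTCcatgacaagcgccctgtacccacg
*Tmed3* (gamma, minus strand, chr9:89699746-89699793): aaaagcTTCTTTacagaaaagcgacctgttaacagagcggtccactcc
*Tmed5* (gamma, minus strand, chr5:108124544-108124591): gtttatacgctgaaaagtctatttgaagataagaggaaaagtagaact

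The phenylalanine pair, a contact for coat proteins, was encoded in this stretch in 7 of the 9 members, *Tmed7* included, and was not found in *Tmed5* or *Tmed6*. It was followed by 6 codons in *Tmed4*, *Tmed9* and *Tmed2*, by 7 in *Tmed10*, by 8 in *Tmed1* and by 12 in *Tmed3* and *Tmed7*. Codons for a pair of lysines at codons 4 and 3 from the end, a form known to bind the COPI coat, were found in *Tmed4* and *Tmed9*. No other member had the pair at that position, but *Tmed10* and *Tmed6* also encoded a pair of lysines within the last 5 codons. The tails of *Tmed4* and *Tmed9* differed at 4 of 48 bases. Over the whole coding sequence these alpha members were identical at 76.1% of aligned bases, the highest of the 36 pairs of members, followed by *Tmed3* and *Tmed7* with 68.9% and *Tmed1* and *Tmed5* with 61.9%. Despite this likeness, 0.59% of the stretches of 31 bases in *Tmed4* transcripts, and 3.44% of those in *Tmed9*, also occurred in another annotated gene.

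Levels are given as TPM (transcripts per 1000000), which are corrected for transcript length, so that genes can be set side by side. Averaged over the 6 mice, *Tmed2*, the only beta member, was the most abundant with 145 TPM, at rank 739 of 35540 genes. *Tmed10*, the only delta member, followed with 112 TPM (rank 911) and *Tmed5* of the gamma subfamily with 102 TPM (rank 969). *Tmed9*, *Tmed7* and *Tmed4* formed a middle group with 58.8, 56.5 and 56.4 TPM. *Tmed1* and *Tmed3* were lower, with 11.1 and 10.2 TPM (ranks 4839 and 5084). *Tmed6*, known for expression in the pancreas, was at 0.0517 TPM or less in every mouse and was listed at 0 in 3 of them, so it was not tested.

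The order was compared between neighbours within each mouse, by exact two-sided sign-flip tests over 6 mice that cannot give a p below 0.0312. *Tmed2* lay above *Tmed10*, *Tmed5* above *Tmed9* and *Tmed4* above *Tmed1* in 6 of 6 mice (exact p = 0.0312, adjusted p = 0.0729 over 7 comparisons). *Tmed10* lay above *Tmed5* in 5 of 6 mice (exact p = 0.125), and *Tmed1* above *Tmed3* in 5 of 6 (exact p = 0.25). *Tmed9* was above *Tmed7* in 4 of 6 mice (exact p = 0.5). *Tmed7* was above *Tmed4* in 3 of 6 mice (exact p = 0.938), and these were the 3 *Alb-Cre+* mice, with a ratio of *Tmed7* to *Tmed4* of 1.06 to 1.41 against 0.80 to 0.92 in the controls. In these mice *Tmed4* stood below *Tmed7* in the *Alb-Cre+* mice and above it in the controls, which the mean over 6 mice does not show. The 3 abundance classes are visible in the plot of TPM by mouse.

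**Figure D1:**
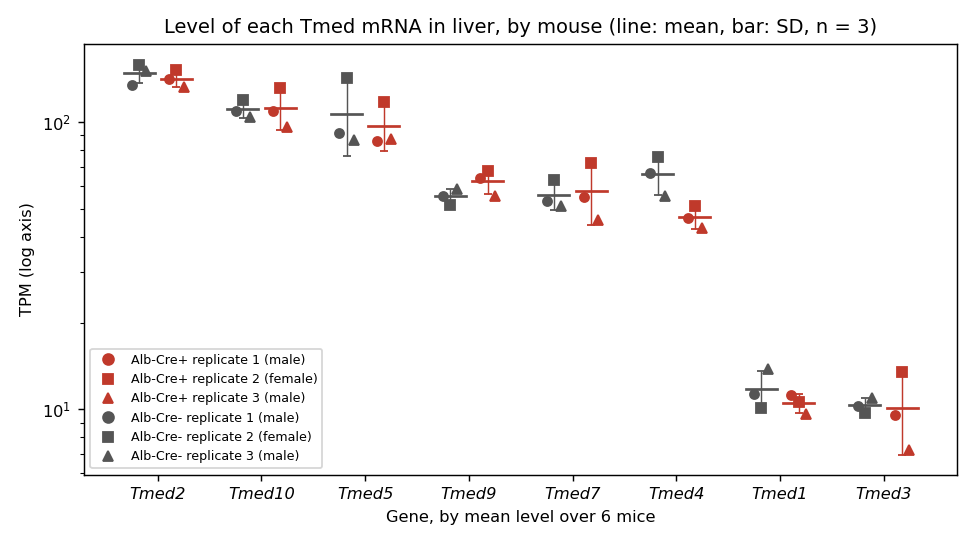
TPM of the 8 tested Tmed mRNAs on a log axis, ordered by their mean over 6 mice, with *Alb-Cre-* mice in grey and *Alb-Cre+* mice in red. Symbols give the replicate number, lines the mean of 3 mice and bars the SD. *Tmed4* is the member whose grey points, from 55.3 to 75.5, all lie above its red points, from 42.8 to 51.3.

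*Surf4* was examined first as a check of the labels. It measured 59.0, 71.8 and 54.3 TPM in *Alb-Cre+* replicates 1, 2 and 3, and 92.5, 94.5 and 92.5 TPM in the *Alb-Cre-* mice. These values did not overlap, with a log2 difference of -0.60 ± 0.13 (SE), which is a ratio of 0.658. Sums over transcripts include mRNA that lacks exon 2, so *Surf4* is a weaker check than reads of that exon would be. Hepatocyte markers were present as the tissue label requires, with 8 of 8 detected and a summed level of 78490 to 101800 TPM in *Alb-Cre+* and 96350 to 105500 TPM in *Alb-Cre-* mice. *Alb* made up much of this sum, with 49190 ± 9680 against 50980 ± 3440 TPM (SD, n = 3). Of the 8 markers, 6 were lower in *Alb-Cre+* liver. *Apoa1*, the main protein of high density lipoprotein, was at 9601 ± 726 against 18070 ± 2570 TPM (SD, n = 3), and *Ttr*, a carrier of thyroid hormone, at 3867 ± 440.0 against 4973 ± 106 TPM, both without overlap. *Apoa1* had an unadjusted p under 0.05, as did *Ttr* with the block alone. Whether these markers bear on the levels of the Tmed genes was not tested.

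No member of the family passed an adjusted p of 0.01 between genotypes, with limma and the Benjamini-Hochberg method over 14189 genes. The same holds for all genes in this fit (0.0% called), the targeted gene *Surf4* included. Without adjustment, 1 of the 8 tested members had a p under 0.05, and this was *Tmed4*, which was lower in *Alb-Cre+* liver. The background in this direction was 0.958% of all genes tested, and it was 0.803% for higher genes, where no member passed. When mice of the same number were paired through a replicate block, *Tmed4* was again the only member with a p under 0.05, while the background rose to 2.42% for lower and 2.28% for higher genes. The median log2 fold change of the 8 members was -0.07, with a range of -0.48 to 0.17, and 3 were higher and 5 lower. Over all genes tested, 7044 were higher and 7145 lower. All adjusted p values of the members were 1.0.

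In the alpha subfamily, *Tmed4* measured 46.5, 51.3 and 42.8 TPM in *Alb-Cre+* replicates 1, 2 and 3. In the *Alb-Cre-* mice it measured 66.8, 75.5 and 55.3 TPM. Every *Alb-Cre+* value lay under every *Alb-Cre-* value, and each genotype had its highest TPM in the female and its lowest in replicate 3. After median of ratios scaling, which levels the median gene across mice, the *Alb-Cre+* female was instead the lowest of its group, at 42.7 against 47.2 and 50.1, and all 3 still lay under the controls, at 58.6 to 70.1. The means were 46.9 ± 4.25 TPM and 65.8 ± 10.1 TPM (SD, n = 3). The ratio taken from the means of log2(TPM + 0.1) was 0.716. On the log2(TPM + 0.1) scale the difference was -0.48 ± 0.15 (SE, limma) with a 95% interval of -0.84 to -0.12, an unadjusted p of 0.0152 and an adjusted p of 1.0. With the replicate block the interval was -0.72 to -0.24, with an adjusted p of 0.547 in limma. An exact two-sided permutation test over the mice gave p = 0.1, the smallest that 3 against 3 can give. In bulk tissue, fewer cells of a type and less mRNA per cell cannot be told apart.

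*Tmed4* was the only member without overlap between the genotypes, against a background of 2.71% of all genes for lower and 2.18% for higher values. It was also the only member below its control in each of the 3 mouse pairs that share a number, with log2 differences of -0.52, -0.56 and -0.37. Of all genes tested, 12.4% lay below in each pair, which is close to the share of 1 in 8 members. The gene lies on the minus strand of chromosome 11, from 6270369 to 6274870 in GRCm38, and the only annotated gene overlapping it there is a ribosomal RNA copy on the opposite strand. Its difference was carried by the leading transcript, of 2003 bases and 5 exons, which held 98.3 to 99.6% of its TPM in every mouse.

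*Tmed9*, the other alpha member, measured 63.9, 67.9 and 55.6 TPM in *Alb-Cre+* replicates 1, 2 and 3, and 55.6, 51.7 and 58.4 TPM in the *Alb-Cre-* mice. The genotypes overlapped, since replicate 3 was the lowest *Alb-Cre+* mouse and the highest *Alb-Cre-* mouse. The means were 62.5 ± 6.29 and 55.2 ± 3.36 TPM (SD, n = 3), and the log2 difference was 0.17 ± 0.12 (SE), with a 95% interval of -0.12 to 0.47. The interval includes 0, so a difference in *Tmed9* was not shown.

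**Figure D2:**
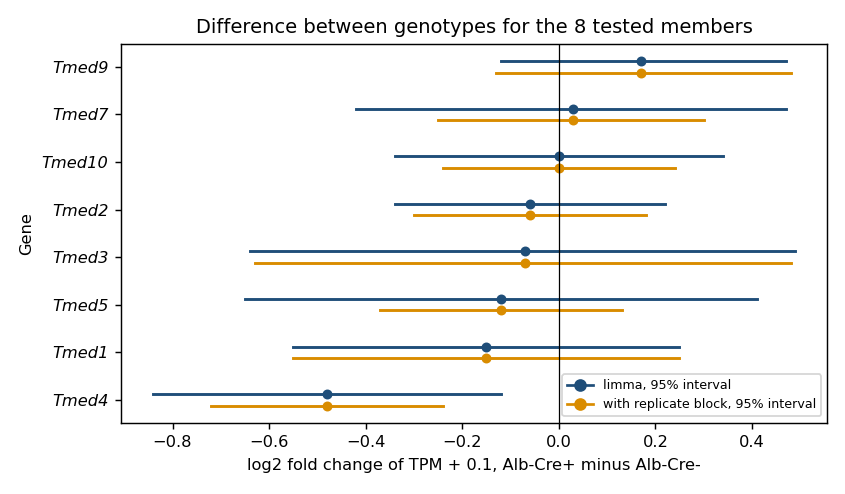
Log2 fold change of TPM + 0.1, *Alb-Cre+* minus *Alb-Cre-*, for the 8 tested members, with points for the estimate and lines for the 95% interval from limma without (blue) and with (orange) the replicate block. *Tmed4*, at -0.48, is the member whose intervals leave out 0, before adjustment over all genes.

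Because the alpha members stood at the opposite ends of the family, their ratio was computed in each mouse, a choice made after their values were seen. The ratio of *Tmed4* to *Tmed9* was 0.728, 0.755 and 0.770 in *Alb-Cre+* replicates 1, 2 and 3. It was 1.20, 1.46 and 0.947 in the *Alb-Cre-* mice. The *Alb-Cre+* mice lay close together and under every control, at 0.751 ± 0.0211 against 1.20 ± 0.257 (SD, n = 3), a log2 difference of -0.66 (exact permutation p = 0.1). A ratio within a mouse does not depend on how its TPM were scaled. Of the 28 ratios between tested members, 6 did not overlap between the genotypes, and 4 of these were among the 7 that hold *Tmed4*. Of the 21 ratios without *Tmed4*, the pairs of *Tmed9* with *Tmed2* and with *Tmed1* did not overlap. Over pairs of all genes that averaged 1 TPM or more, 6.16% of ratios did not overlap. The 28 ratios share members, and each of the 6 holds *Tmed4* or *Tmed9*, so these counts are not independent. The smallest p adjusted over the 28 ratios was 0.467 (exact permutation tests).

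The sum of *Tmed4* and *Tmed9* was 109 ± 10.4 TPM in *Alb-Cre+* and 121 ± 6.86 TPM in *Alb-Cre-* liver (SD, n = 3), and the values overlapped (exact permutation p = 0.2). In the plot of the alpha pair, the lines of *Tmed4* all descend, while those of *Tmed9* cross.

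**Figure D3:**
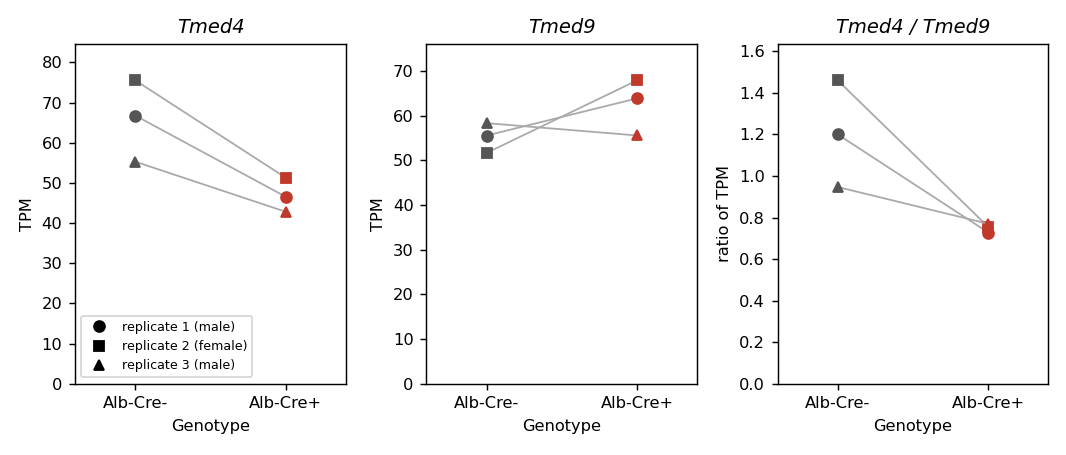
TPM of *Tmed4* (left) and *Tmed9* (middle) and the ratio of the TPM (right) in *Alb-Cre-* (grey) and *Alb-Cre+* (red) mice, with all axes starting at 0. Lines join mice of the same replicate number. The ratio lies between 0.728 and 0.770 in the *Alb-Cre+* mice and between 0.947 and 1.46 in the controls.

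*Tmed2*, the beta subunit found in most p24 assemblies, measured 142, 152 and 132.5 TPM in *Alb-Cre+* and 135, 159 and 151 TPM in *Alb-Cre-* replicates 1, 2 and 3. The mice interleaved, and the log2 difference was -0.06 ± 0.12 (SE, 95% interval -0.34 to 0.22). *Tmed10*, the delta subunit, measured 109, 131 and 96.0 TPM in *Alb-Cre+* and 109.8, 119.8 and 104 TPM in *Alb-Cre-* mice. Its means were 112 ± 17.8 and 111 ± 7.79 TPM (SD, n = 3), the closest of the tested members on the log2 scale, with a 95% interval of the difference from -0.34 to 0.34. Differences inside this interval, which is not adjusted over all genes, cannot be told from 0 with these mice.

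The gamma subfamily has 5 members here, and its tested members all overlapped between genotypes. *Tmed5* measured 86.4, 117 and 87.7 TPM in *Alb-Cre+* and 92.0, 143 and 87.0 TPM in *Alb-Cre-* replicates 1, 2 and 3. The female was far above the males in both genotypes, and the log2 difference between genotypes was -0.12 ± 0.22 (SE, 95% interval -0.65 to 0.41). *Tmed7* measured 54.8, 72.2 and 45.5 TPM in *Alb-Cre+* and 53.1, 62.7 and 51.0 TPM in *Alb-Cre-* mice. Here too the female was highest in each genotype, with a log2 difference of 0.03 ± 0.19 (SE, 95% interval -0.42 to 0.47).

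*Tmed1* measured 11.2, 10.6 and 9.65 TPM in *Alb-Cre+* and 11.3, 10.1 and 13.8 TPM in *Alb-Cre-* mice. Its log2 difference of -0.15 ± 0.17 (SE, 95% interval -0.55 to 0.25) rested largely on *Alb-Cre-* replicate 3, without which it was -0.03. *Tmed3* measured 9.57, 13.5 and 7.24 TPM in *Alb-Cre+* and 10.3, 9.70 and 11.0 TPM in *Alb-Cre-* mice. The *Alb-Cre+* mice spread on both sides of the controls, with an SD of 3.19 against 0.636 TPM, and the log2 difference was -0.07 ± 0.24 (SE, 95% interval -0.64 to 0.49). *Tmed6* was listed at 0, 0.0517 and 0.0490 TPM in *Alb-Cre+* and at 0, 0.0413 and 0 TPM in *Alb-Cre-* mice.

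The spread between mice of a genotype differed among the members, from a residual SD of 0.11 log2 units for *Tmed2* and 0.12 for *Tmed9* to 0.32 for *Tmed3* and 0.33 for *Tmed5*. The median over all genes tested was 0.33. For *Tmed4* it was 0.18, the same as for *Tmed1* and *Tmed10*.

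The 9 members together made up 523, 616 and 477 TPM in *Alb-Cre+* and 534, 631 and 532 TPM in *Alb-Cre-* replicates 1, 2 and 3. The means were 539 ± 70.7 and 566 ± 56.6 TPM (SD, n = 3), which overlapped (exact permutation p = 0.5). Because p24 proteins assemble across subfamilies, the share of each subfamily in this sum was also compared. The alpha share was 20.4 ± 0.904% in *Alb-Cre+* and 21.5 ± 1.38% in *Alb-Cre-* liver. The beta share was 26.5 ± 1.66% and 26.3 ± 1.82%, and the gamma share 32.4 ± 2.04% and 32.5 ± 2.80%. The delta share, which is *Tmed10*, was 20.9, 21.3 and 20.1% in *Alb-Cre+* and 20.6, 19.0 and 19.6% in *Alb-Cre-* replicates 1, 2 and 3. None of the 4 shares was separated by genotype, with unpaired exact permutation p of 0.4 for alpha, 1.0 for beta, 0.9 for gamma and 0.2 for delta (adjusted p of 0.8 to 1.0 over the 4). Within pairs of the same replicate number, the alpha share and the summed TPM were lower, and the delta share higher, in 3 of 3 *Alb-Cre+* mice. For each of these an exact sign-flip test gave p = 0.25, the smallest that 3 pairs can give.

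**Figure D4:**
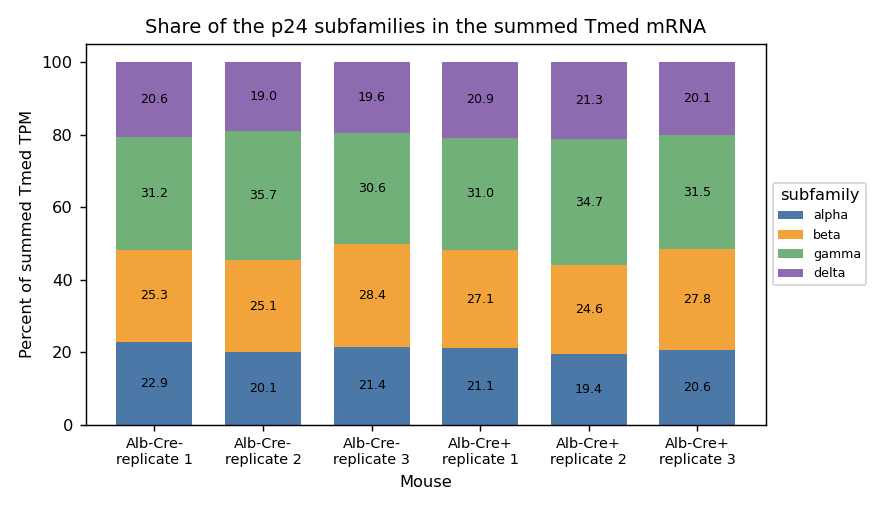
Percent of the summed Tmed TPM held by the alpha (*Tmed4*, *Tmed9*), beta (*Tmed2*), gamma (*Tmed1*, *Tmed3*, *Tmed5*, *Tmed6*, *Tmed7*) and delta (*Tmed10*) subfamilies in each of the 6 mice. The gamma share is highest in the female of each genotype, with 34.7% in *Alb-Cre+* and 35.7% in *Alb-Cre-* replicate 2.

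The female mice carried higher TPM than the males for part of the family. With 1 female in each genotype, this is a description without a test. Both females lay above all 4 males for *Tmed2*, *Tmed10*, *Tmed5* and *Tmed7*, which is 4 of 8 members, against a background of 36.6% of all genes tested. The median gene was itself higher in the female, by 0.37 log2 units in *Alb-Cre+* and 0.14 in *Alb-Cre-* mice. After scaling by median of ratios, which sets that median to 0, *Tmed7* was the only member for which both females lay above all males, against a background of 19.4%. *Tmed5* was the furthest apart before scaling in the controls, with 143 TPM in the female and 87.0 to 92.0 TPM in the males. After scaling, its female lay 0.53 log2 units above the males in *Alb-Cre-* and 0.04 in *Alb-Cre+* mice.

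**Figure D5:**
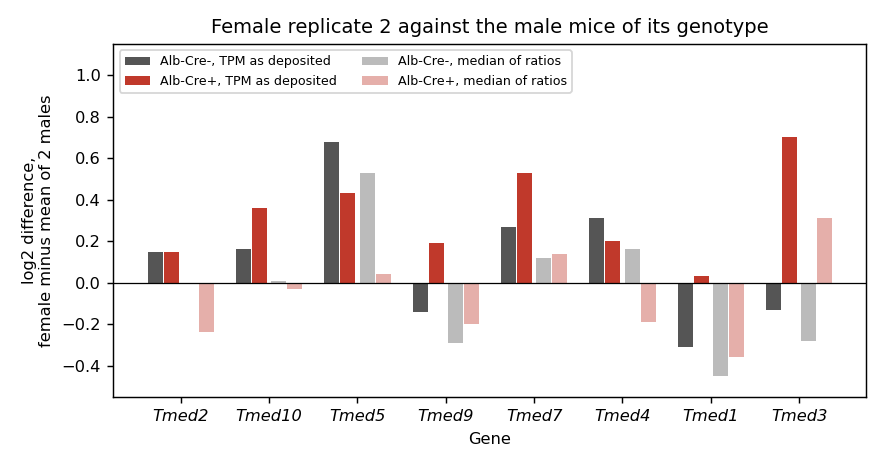
Log2 difference between the female (replicate 2) and the mean of the male mice of its genotype for the 8 tested members, in *Alb-Cre-* (grey) and *Alb-Cre+* (red) mice, with dark bars for TPM as deposited and pale bars after median of ratios scaling. Scaling lowers the bars of every member, and those of *Tmed10* shrink from 0.36 and 0.16 to -0.03 and 0.01.

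Most members were represented by a leading coding transcript. Transcripts annotated as noncoding, with a retained intron or marked for nonsense-mediated decay, made up 20.9 to 25.4% of *Tmed7* and 11.5 to 13.6% of *Tmed10*, with overlapping ranges in the genotypes. In *Tmed7* this was a retained-intron transcript of 7982 bases that measured 10.6 to 16.4 TPM. In *Tmed2*, a transcript marked for decay was listed at 12.3, 0 and 10.7 TPM in *Alb-Cre+* and at 6.42, 6.82 and 12.4 TPM in *Alb-Cre-* mice. In *Tmed5*, a coding transcript of 482 bases measured 13.8, 12.3 and 5.14 TPM in *Alb-Cre+* and 14.7, 5.69 and 13.1 TPM in *Alb-Cre-* mice. Neither of these forms separated the genotypes.

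Some members share sequence or position with other genes, where reads may have been divided. *Tmed2* shared 24.7% of its stretches of 31 bases, largely with the pseudogenes *Gm10698* and *Gm7318*, both listed at 0 in every mouse. *Tmed7* shared 14.5%, mainly with *Ticam2* on the same strand. *Tmed1* overlaps *Dnm2* on the opposite strand, with which it shared 11.1%. *Tmed5* shared 10.2%, of which 366 of 783 stretches were with *Mtf2* on the opposite strand. Whether the library was stranded is not given in the sources used here, so for *Tmed1* and *Tmed5* the reads of the opposite partner cannot be told apart.

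The promoters of 7 members were matched in RefSeq (GRCm38.p6), as windows of 300 bases from 250 before to 50 after the start. They were searched on both strands for short motifs known from promoters that respond to ER stress. The first was ACGTG, held by 19.6% of 32851 promoters. A second was CCAAT, held by 37.4%. Also searched was CCACG, held by 32.8%, whose letters may overlap those of the first. *Tmed9* and *Tmed10* held all 3 motifs, as did 4.3% of all promoters. *Tmed4* held CCAAT alone. A match is a description of the letters only.

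The coats and cargo that p24 proteins work with were described next. Of the COPI coat and its *Arf1* cycle, 14 of 14 genes were tested, 4 were higher and 10 lower, and none had an unadjusted p under 0.05 in limma. *Arf1*, the GTPase that recruits the coat, measured 165 ± 29.5 TPM in *Alb-Cre+* and 170 ± 8.34 TPM in *Alb-Cre-* liver (SD, n = 3). *Copb1*, a coat subunit, had a log2 difference of -0.28 ± 0.17 (SE) and passed an unadjusted p under 0.05 with the block alone. *Arfgap3*, which promotes release of the coat, had the smallest p among the higher genes at 0.29 ± 0.34. Of 17 COPII genes, 8 were higher and 9 lower, and none passed without the block. *Sec16b*, a scaffold of ER exit sites, was at -0.39 ± 0.19 (SE) and likewise passed with the block alone, and *Sec24b*, a cargo adaptor, at 0.26 ± 0.24.

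Other ER to Golgi cargo receptors were mostly on the lower side, with 3 higher and 13 lower of 16 tested out of 19. The targeted gene *Surf4* is among the 13 and was the only one with an unadjusted p under 0.05. Lower values without overlap between genotypes were found for 4 of the 16, *Surf4*, *Lman2l*, *Bcap31* and *Rer1*, against a background of 2.71% of all genes. The median log2 fold change of the 16 was -0.11, against -0.07 for the Tmed members and a median of all genes near 0. *Ergic1*, another such receptor, had the smallest p among the higher genes, at 0.05 ± 0.13 (SE). Of 9 genes that attach or remodel the GPI anchor, 2 were higher and 7 lower, and none passed. *Pigs*, a subunit of the attaching enzyme, was at 0.08 ± 0.15, and *Mppe1*, which trims the anchor ahead of recognition by p24 proteins, at -0.25 ± 0.27.

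Among GPI-anchored proteins, the best known cargo of the family, 18 of 19 were tested, with 7 higher and 11 lower. *Alpl*, tissue-nonspecific alkaline phosphatase, measured 18.6, 28.7 and 21.8 TPM in *Alb-Cre+* and 13.0, 16.9 and 11.6 TPM in *Alb-Cre-* replicates 1, 2 and 3. These values did not overlap, with a log2 difference of 0.72 ± 0.22 (SE) and an adjusted p of 1.0 in limma, its unadjusted p being under 0.05. *Gpc1*, a glypican that carries heparan sulfate, was low in both genotypes, with 0.763 ± 0.279 against 1.83 ± 0.277 TPM (SD, n = 3), and its log2 difference was -1.21 ± 0.34 (SE), also with an unadjusted p under 0.05. With the block, *Bst2*, an antiviral surface protein, also had an unadjusted p under 0.05, on the lower side. The background was 0.803% of all genes tested for higher and 0.958% for lower genes. With the block it was 2.28% and 2.42%.

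Of 4 Golgi matrix genes whose proteins bind p24 tails or each other, all 4 were higher, by 0.02 to 0.46 log2 units. *Gorasp1*, a Golgi stacking protein, measured 15.2, 13.4 and 14.1 TPM in *Alb-Cre+* and 9.74, 9.72 and 11.5 TPM in *Alb-Cre-* mice, without overlap. Its log2 difference was 0.46 ± 0.15 (SE), with an unadjusted p under 0.05 and an adjusted p of 1.0 in limma. *Gorasp2*, its close relative, was at 51.2 ± 2.14 against 50.4 ± 1.59 TPM (SD, n = 3). Among 14 targets of the unfolded protein response, which raises ER chaperones, 11 were higher and 3 lower, with a median of 0.28. *Sdf2l1* and *Hsp90b1*, an ER co-chaperone and a chaperone, had unadjusted p under 0.05, at 0.85 ± 0.28 and 0.39 ± 0.15 (SE). With the block *Hspa5*, the main ER chaperone of the Hsp70 family, also passed, at 0.44 ± 0.22 (SE, without the block), which makes 3. The background for higher genes was 0.803% of all genes tested, and 2.28% with the block. *Herpud1*, a gene of ER-associated degradation, had the smallest p among the lower ones, at -0.45 ± 0.21. The targets were uneven over pairs of the same replicate number. *Hyou1*, *Manf* and *Calr* were at 1.19, 0.93 and 0.92 log2 units in the female pair. In the male pair of replicate 3 they were at -0.32, -0.33 and -0.35. Most of the 14 targets were lower in that male pair, and only *Sdf2l1*, *Hsp90b1* and *Hspa5* were higher. The 8 tested Tmed members had a median of -0.07, and the difference between the lists was not tested.

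The remaining Tmed genes, which were not among the 9, were near the floor. *Tmed8* measured 0.393 ± 0.182 TPM in *Alb-Cre+* and 0.332 ± 0.0233 TPM in *Alb-Cre-* liver (SD, n = 3), and *Tmed11* was listed at 0 in every mouse.

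Profiles over the 6 mice were set beside that of *Tmed2*, by the root mean square difference of log2 levels after centring each gene. The median over 10634 genes was 0.23, and the nearest genes were *Ube2d-ps* (0.0248), *Atp5l* (0.0254) and *Stim2* (0.0284). *Tmed10* was the nearest member, at rank 985 with 0.105. *Tmed9*, *Tmed7* and *Tmed1* followed at ranks 2868, 3006 and 3339, then *Tmed5* and *Tmed3* at 4863 and 5136. *Tmed4* was the least like it, at rank 5861 with 0.25.

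The summed markers of other liver cells overlapped between the genotypes. Summed over 8 Kupffer cell genes, the level was 209.9 to 760 TPM in *Alb-Cre+* and 264 to 710.2 TPM in *Alb-Cre-* mice. It was 94.7 to 223 and 126 to 205 TPM for 7 endothelial genes, 105 to 216 and 87.2 to 224 TPM for 7 stellate cell genes, 23.3 to 39.2 and 15.0 to 59.2 TPM for 5 cholangiocyte genes, 2.13 to 5.69 and 2.29 to 7.09 TPM for 6 lymphocyte genes, and 88.0 to 202 and 68.2 to 282 TPM for 4 erythroid genes. Of 7 pancreatic acinar genes, *Cpa1*, *Cela3b*, *Pnlip* and *Ptf1a* were at 0 in every mouse, and the sum was 0.709 to 0.937 and 0.764 to 1.06 TPM. Among the single markers, *Col3a1*, a collagen of fibroblasts, did not overlap, with 2.20 to 3.16 TPM in *Alb-Cre+* and 3.22 to 4.44 TPM in *Alb-Cre-* mice. *Marco*, a macrophage receptor, overlapped and was on the higher side, with an unadjusted p under 0.05 with the block alone. The part of these cells in the levels of the Tmed genes was not tested.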

How the data were processed

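RNA from whole liver of 6 mice was sequenced. The authors deposited TPM per transcript and mouse, values corrected for transcript length and scaled to 1000000 in each mouse. The table is named as Salmon output, while the methods describe STAR alignment to GRCm38 and RSEM. The authors also deposited a DESeq2 comparison (means, log2 fold changes, p-values), which was not used here. Since TPM keep no read totals, the depth behind each mouse is unknown and counting error cannot be given. The p-values set differences against the spread between these mice, and in limma the spread of a gene is moderated by that of all genes.

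TPM were summed per gene symbol, leaving out 163 transcripts with no symbol (0.052 to 0.089% of TPM). The 14189 genes that averaged 0.1 TPM or more entered the comparison on log2(TPM + 0.1), a scale that understates differences of low genes, with limma 3.58.1 in R 4.3.3, using genotype alone, empirical Bayes variances with a trend and the Benjamini-Hochberg method, at an adjusted p of 0.01. The procedure was also run on simulated data with known changes. The simulated mice were independent, without the correlation between same-numbered mice described below, so that run does not give error rates for these data. Summed levels, shares and ratios were compared by exact two-sided permutation tests.

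The labels number the mice 1 to 3 in each genotype. Deviations from the genotype means correlated between same-numbered mice (r = 0.367, 0.588 and 0.370 over 14189 genes). Between others r ran from -0.444 to 0.171. Both mice of replicate 2 are female, so for them number and sex cannot be told apart. Among the males, r was 0.367 and 0.370 for the same number, against 0.171 and 0.0914 for different numbers. The labels do not say whether same-numbered mice are littermates. The numbers were still taken to pair the mice. The replicate block is given where it changes a count of members or of list genes. For *Tmed4* the block left the adjusted p above 0.01.

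Alternatives were the replicate block, a sex term, a pseudocount of 1 TPM, a minimum mean of 1 TPM or none, median of ratios scaling, limma without the trend, an adjusted p of 0.05 and each mouse left out in turn. Members and gene lists were chosen with earlier results of these data known. All 9 members are named. Of each list other than the cell type markers the counts are given, with the gene of smallest p in each direction and those with an unadjusted p under 0.05. A few other list genes were named after their values were seen. These were *Arf1*, *Gorasp2*, *Hyou1*, *Manf*, *Calr*, *Lman2l*, *Bcap31*, *Rer1*, the genes that passed with the block alone, and the markers named singly. Sequences were aligned with Biopython 1.88 and tests run with scipy 1.17.1.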

Additional observations from a re-analysis of the deposited data

Results flagged for a closer look

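On TPM as deposited, the female pair of same-numbered mice differed in direction from both male pairs for 3 members. The value compared is the log2 difference *Alb-Cre+* minus *Alb-Cre-*. *Tmed10* was at 0.13 in the female pair and at -0.009 and -0.12 in the male pairs. *Tmed1* was at 0.07 in the female pair, against -0.0076 and -0.52. *Tmed3* was at 0.48, against -0.10 and -0.59. With 1 female in each genotype, these differences between the sexes were not tested. The median gene also differed between the females and the males by more in *Alb-Cre+* than in *Alb-Cre-* liver, as given above. After median of ratios scaling, the *Alb-Cre+* female lay below the *Alb-Cre-* female for *Tmed10* (109.2 against 111.2) and *Tmed1* (8.82 against 9.38). Of the 3 members, only *Tmed3* kept the pattern. It was at 11.3 against 9.01 in the females, and at 8.47 to 9.71 against 10.3 to 11.6 in the males.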

How the results depend on the processing

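Under the alternatives, no member passed an adjusted p of 0.01, and 1 member, *Tmed4*, had an unadjusted p under 0.05 in each of them, with a log2 fold change of -0.60 to -0.38 with a mouse left out and p of 0.00324 to 0.0493 (adjusted p of 0.547 to 1.0, limma). Over all genes the count with an unadjusted p under 0.05 moved from 250 to 666 with the replicate block, 531 with sex as a covariate, 442 with no filter, and 775 with median of ratios and the block, and leaving out a mouse gave 183 to 506. Over all genes 0 passed the adjusted threshold in these fits, except 1, not a member, without *Alb-Cre+* replicate 1. Pairing by the replicate block changed no call of a member, and the count with an unadjusted p under 0.05 stayed at 1. *Tmed10* turned to -0.0012 with median of ratios scaling, with and without the block. With a mouse left out, *Tmed10* ran from -0.12 to 0.11, *Tmed5* from -0.26 to 0.10, *Tmed7* from -0.15 to 0.18 and *Tmed3* from -0.31 to 0.14. The summed TPM difference ran from -65.6 to 5.66, the beta share from -0.437 to 1.25 percentage points and the gamma share from -1.30 to 1.47. *Tmed4*, *Tmed9*, *Tmed2*, *Tmed1*, *Surf4* and the alpha and delta shares kept their direction, but with a mouse left out *Tmed9* ran from 0.11 to 0.26, *Tmed2* from -0.13 to -0.01, *Tmed1* from -0.25 to -0.03, the alpha share from -1.77 (without *Alb-Cre-* replicate 2) to -0.395 (without *Alb-Cre-* replicate 1) and the delta share from 0.669 to 1.46 (without the same mice). Without *Alb-Cre+* replicate 2 the median of all genes moved to -0.124, and without *Alb-Cre+* replicate 3 to 0.112. The depth behind the TPM is unknown.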
